A study of Mus musculus with 2 samples.

Results

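The CXC chemokines described here are 6 of the 32285 genes counted in a single-cell RNA-seq series of mouse gut. They were chosen by name as the CXC ligands produced by myeloid cells: Cxcl1, Cxcl2, Cxcl3, Cxcl9, Cxcl10 and Cxcl16. The series holds 2 libraries described as CD11b+ cells from lamina propria, the tissue layer beneath the gut lining. Their titles name them Runx3_fl and Runx3. The study compared RUNX3 fl/fl-Lyz2-Cre mice, in which Cre driven by the myeloid gene Lyz2 removes the transcription factor RUNX3, with RUNX3 fl/fl littermates. Both groups share the floxed allele, are described as 8-week-old males with no treatment named, and had cells of several mice pooled into 1 library, so no spread between mice could be measured and no test between groups was possible. Neither title names Cre. Lyz2 is also active in neutrophils, so the comparison is not one of macrophages alone.

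The labels did not match the data in every respect, and groups are therefore called the library labelled Runx3_fl and the library labelled Runx3 throughout. Over both macrophage classes Runx3 stood at 158 CPM (UMIs of a gene per 1000000 UMIs of the class) in the library labelled Runx3_fl, and it was higher, 224 CPM, in the library labelled Runx3, the opposite order to a deletion, although 3′ tags need not fall in the deleted part. Over all kept cells it was at 313 and 195 CPM, the order of the labels, but this sum includes lymphocytes. T and NK cells, called by markers as described below, made up 26.1% and 24.1% of the cells under the label Runx3_fl. Under the label Runx3 they made up only 5.28% and 2.02%. The part of this makeup in the all-cell Runx3 level was not tested. Xist, which marks female cells, was at 212 CPM in the library labelled Runx3_fl but at 0.183 CPM in the other, against the description of male mice. After the study's stated cell filter 11885 and 8167 cells were kept, with a median of 9573 and 5731 UMIs per cell. Itgam, which encodes CD11b, gave a UMI in 44.6% and 38.2% of them, and 37 barcodes occurred in both libraries. Where a pair of values is given, the library labelled Runx3_fl comes first. Every direction below is that between the labelled libraries, and the intervals printed are 95% intervals for counting error only.

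CXC chemokines are small secreted proteins that steer leukocytes through G protein-coupled receptors. Cxcl1, Cxcl2 and Cxcl3 bind Cxcr2 and draw neutrophils into tissue; they are induced by NF-kB downstream of microbial products, IL-1 and TNF, and their mRNAs are short lived. Cxcl9 and Cxcl10 are induced by interferons and recruit activated T and NK cells through Cxcr3. Cxcl16 is made as a membrane-anchored protein with a mucin-like stalk, binds Cxcr6 and is shed by the protease Adam10.

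In GENCODE M21 (GRCm38) the first 5 genes lie on chromosome 5. Cxcl3 (ENSMUSG00000029379, chr5:90786103-90789600), Cxcl1 (ENSMUSG00000029380, chr5:90891241-90893115) and Cxcl2 (ENSMUSG00000058427, chr5:90903871-90905938) are neighbours on the plus strand. Cxcl9 (ENSMUSG00000029417, chr5:92321347-92328079) and Cxcl10 (ENSMUSG00000034855, chr5:92346638-92348889) lie side by side on the minus strand. Cxcl16 (ENSMUSG00000018920) is on the minus strand of chromosome 11, chr11:70453983-70459984. Cxcl10 overlaps Art3 and Cxcl16 overlaps Zmynd15 on the opposite strand. The use of strand in the counting is not given in the sources used here, and how reads from these pairs were assigned was not checked.

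The promoters are shown to compare the letters just upstream of the starts of the 2 groups of ligands. RefSeq promoter sequence (GRCm38, gene strand, 5′ to 3′) was matched for 5 of the 6 genes, all but Cxcl16. Capitals mark the matches found in the 250 bases before the start, on either strand: the NF-kB (kappaB) consensus by its name, TATAAA, the interferon-response core AANNGAAA, the AP-1 core TGANTCA and the RUNX core TGTGGT. The windows are chr5:90891125-90891244, chr5:90903749-90903868 and chr5:90785981-90786100 on the plus strand for the neutrophil attractants.
Cxcl1: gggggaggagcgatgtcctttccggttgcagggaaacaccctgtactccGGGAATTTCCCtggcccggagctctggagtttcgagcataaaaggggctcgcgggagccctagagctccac
Cxcl2: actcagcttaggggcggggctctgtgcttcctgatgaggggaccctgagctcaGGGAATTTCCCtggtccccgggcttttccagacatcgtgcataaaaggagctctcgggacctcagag
Cxcl3: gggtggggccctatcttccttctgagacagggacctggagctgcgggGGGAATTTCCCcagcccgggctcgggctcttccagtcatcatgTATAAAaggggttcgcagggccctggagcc
For the Cxcr3 ligands the windows are chr5:92328080-92328299 and chr5:92348890-92349109 on the minus strand.
Cxcl9: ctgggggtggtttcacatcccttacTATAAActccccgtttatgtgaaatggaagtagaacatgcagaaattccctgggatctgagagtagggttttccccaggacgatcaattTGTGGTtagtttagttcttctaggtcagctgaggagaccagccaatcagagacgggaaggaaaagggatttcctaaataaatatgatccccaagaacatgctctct
Cxcl10: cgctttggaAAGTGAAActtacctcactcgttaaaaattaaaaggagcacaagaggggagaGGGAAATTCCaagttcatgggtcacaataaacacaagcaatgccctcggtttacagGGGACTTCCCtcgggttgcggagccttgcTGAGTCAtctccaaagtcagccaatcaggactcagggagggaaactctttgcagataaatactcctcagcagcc

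Cxcl1, Cxcl2 and Cxcl3 each held 1 kappaB match, of the same letters in all 3, and Cxcl10 held 2 with other letters. Of 32851 RefSeq mouse promoters of this length, 3.9% held such a match, and Cxcl9 held none in this window. Cxcl10 alone among the 5 held the interferon-response core, which 21.3% of promoters hold, and the AP-1 core, which 6.75% hold. TATAAA was found in Cxcl3 and Cxcl9 and in 12.4% of promoters. The RUNX core was found in Cxcl9 alone among the 5 and in 14.0% of all promoters. The interferon-gamma-activated-site core TTCNNNGAA was in none of these 5 windows and in 7.02% of promoters. None of the motifs searched was held by all members of 1 group of ligands and by none of the other. Over the 250 bases, identity was 58.0% between Cxcl1 and Cxcl2, 59.6% between Cxcl1 and Cxcl3 and 62.4% between Cxcl2 and Cxcl3. Between an attractant and Cxcl9 or Cxcl10 it ranged from 48.4% to 56.4%, and between Cxcl9 and Cxcl10 it was 54.8%. A match is a description of letters, and binding was not measured.

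The 3′ ends of the mRNAs separated the neutrophil attractants from the other members. AU-rich elements, ATTTA repeats in the 3′ untranslated region, mark mRNAs for decay by proteins such as Zfp36. Windows of 30 bases that end in the nonamer TTATTTATT (capitals) are shown from GENCODE M21, at chr5:90892604-90892633, chr5:90905325-90905354 and chr5:90787856-90787885 on the plus strand.
Cxcl1: gggtcctatttatttatgtatTTATTTATT
Cxcl2: cTTATTTATTtatctatgtatTTATTTATT
Cxcl3: actatacaagattatcagttgTTATTTATT
Cxcl2 held 11 ATTTA and 4 nonamers in a 734-base 3′ untranslated region. Cxcl1 held 7 and 2 in 592 bases, and Cxcl3 held 5 and 1 in 645 bases. Of 20672 genes 6.9% held at least 1 nonamer, 1.62% at least 2 and 0.247% at least 4. Cxcl9, Cxcl10 and Cxcl16 held none, with 3, 2 and 2 ATTTA in 2452, 729 and 1421 bases. Per 1000 bases ATTTA came to 15.0 in Cxcl2, 11.8 in Cxcl1 and 7.75 in Cxcl3, against 2.74 in Cxcl10, 1.41 in Cxcl16 and 1.22 in Cxcl9, and the median over all genes was 1.12.

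Cells were placed by single gating genes: Csf3r for neutrophils, Flt3 for conventional dendritic cells, Ly6c2 for monocytes, Csf1r with C1qa for macrophages, Ncr1 for NK and Cd3e for T cells. A cell that passed 1 gate only took its name, and cells passing both the Ly6c2 and the macrophage gate were kept apart as Ly6c2-positive macrophages. In the libraries labelled Runx3_fl and Runx3 these gave 707 and 351 neutrophils, 529 and 181 Flt3-gate cells, 1253 and 2290 Ly6c2-gate cells, 165 and 276 Ly6c2-positive macrophages and 90 and 66 macrophages. Neutrophils had 8 and 7 of their 8 markers in at least 25% of cells, and macrophages had 7 and 8. The Flt3 gate had 6 and 5 of 8 dendritic-cell markers, but also 1 and 7 of 8 B-lineage markers, so in the library labelled Runx3 the data went against the name and the class is called the Flt3 gate. The Ly6c2 gate had 6 and 4 of 8 monocyte markers with 2 and 3 of 8 B-lineage markers, and is called by its gate too. A second assignment by panels of 8 markers was made beside the gates, and its values are given where they changed a call or a direction in the classes described. It called 23.5% and 15.0% of the Ly6c2-gate cells monocytes. The Ly6c2 gate had a median depth of 10722 and 3513.5 UMIs. Neutrophil markers summed to 202 and 2741 CPM in it and NK markers to 972 and 192 CPM, so its makeup differed between the libraries. By these panels T cells were 26.1% and 5.28% of kept cells, NK cells 24.1% and 2.02% and B-lineage cells 3.06% and 9.15%. The libraries thus differed widely in their share of lymphocytes. B-lineage cells (Cd79a without any gate), NK and T cells, which are not a known main source of the neutrophil attractants, served as the background of free RNA. The 3′ counts behind the CPM levels were not divided by gene length, so levels of different genes set side by side are tag counts and not molecules per length.

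Cxcl2 was the most counted member in every myeloid class except the Flt3 gate, and neutrophils stood above all other classes in both libraries. In neutrophils it stood at 19809.5 CPM (interval 19650.1 to 19970.0) under the label Runx3_fl and at 10173.8 CPM under the label Runx3. Ly6c2-positive macrophages followed with 7391 and 2223 CPM, macrophages with 5778 and 1706 CPM, and the Ly6c2 gate with 2382 and 1038 CPM. The Flt3 gate lay far lower, at 262 and 293 CPM. All neighbours in this order had intervals that did not overlap in either library. T, B-lineage and NK cells ended the order at 105, 66.8 and 42.6 CPM in the library labelled Runx3_fl and at 171, 131 and 122 CPM in the other, where the last 2 overlapped.

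Cxcl2 was also a gene of nearly all neutrophils. With every cell thinned to 2000 UMIs, which left out 92 and 127 shallower neutrophils, 91.9% and 76.3% of them had a Cxcl2 UMI, compared with 95.6% and 82.3% unthinned. Thinned macrophages gave 86.9% and 62.0%, and Ly6c2-positive macrophages 89.1% and 72.3%. The share in B-lineage cells, which should lack the gene, was 9.03% and 19.1%. In the Flt3 gate it was 21.6% and 20.9%, and in the library labelled Runx3 that share lay among those of B-lineage (19.1%), T (23.0%) and NK cells (25.5%), so it is read as background there. A single neutrophil held up to 1100 Cxcl2 UMIs, and 50% of all neutrophil Cxcl2 UMIs came from 131 of 707 and 35 of 351 cells.

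Between the libraries Cxcl2 was lower in the library labelled Runx3 in both macrophage classes and in the Ly6c2 gate. The log2 ratio, Runx3 over Runx3_fl, was -1.76 in macrophages (interval -1.87 to -1.65), a 3.39-fold lower level. In the macrophages of the library labelled Runx3, 3 of 66 cells held 50% of the Cxcl2 UMIs, and leaving out the cell with most UMIs in each library gave -2.37. It was -1.73 in Ly6c2-positive macrophages and -1.20 in the Ly6c2 gate. In neutrophils it was -0.96 and fell just short of the 2-fold line, whereas under the marker panels it was -1.76 (28714 and 8460 CPM). The Flt3 gate differed by 0.16, and in NK cells the sign was the other way, 1.49 (interval 1.08 to 1.93) from 418 and 54 UMIs at background level, the latter in 47 cells. Under the marker panels, with 2397 and 190 UMIs, the NK ratio was 0.26 and did not reach 2-fold.

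**Figure D1:**
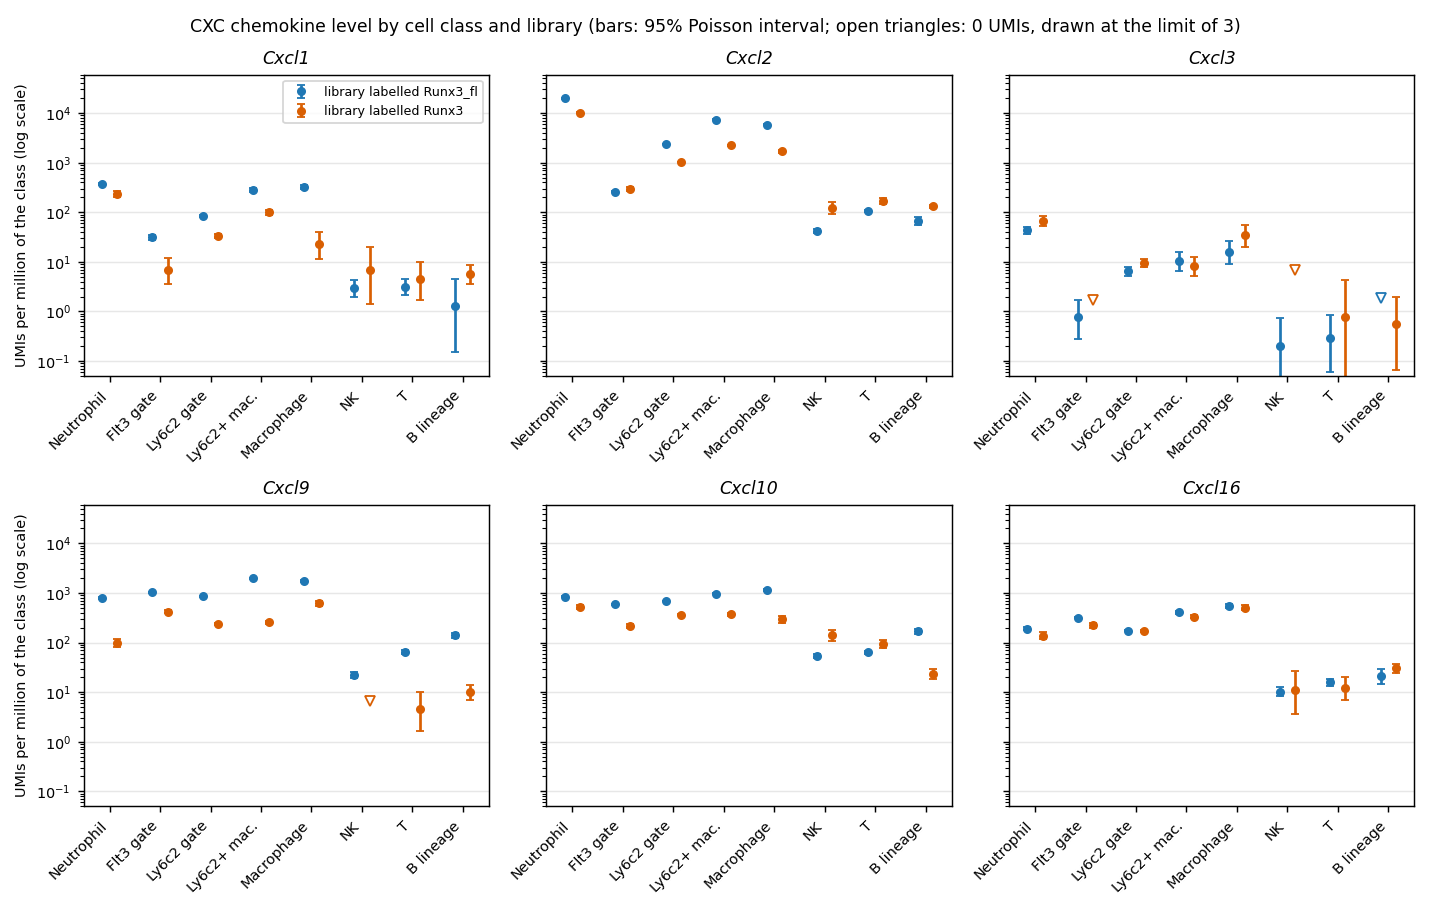
Level of each CXC chemokine in CPM (log scale) in 8 cell classes of the 2 libraries, with 95% Poisson intervals; open triangles stand for 0 UMIs, drawn at the limit of 3 UMIs. Cxcl2 in neutrophils (19809.5 and 10173.8) tops all panels, Cxcl9 spans 803 to 1984 over the myeloid classes of the library labelled Runx3_fl, and Cxcl16 points of both libraries nearly coincide.

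Cxcl1, a mouse counterpart of the human GRO chemokines, came from far fewer cells. Neutrophils held 371 and 234 CPM, macrophages 323 and 22.6 CPM, and Ly6c2-positive macrophages 283 and 99.95 CPM. In the library labelled Runx3_fl macrophages did not differ beyond the intervals from either neighbour in this order, and in the other they overlapped with the Ly6c2 gate at 32.7 CPM and the Flt3 gate at 6.86 CPM. NK, T and B-lineage cells had 1.26 to 6.76 CPM. A Cxcl1 UMI was found in 16.3% and 11.4% of neutrophils and in 27.3% and 12.3% of Ly6c2-positive macrophages, and after thinning in 14.0% and 11.2% and in 18.8% and 6.72%. In neutrophils 50% of the UMIs came from 18 of 707 and 7 of 351 cells, and in macrophages of the library labelled Runx3_fl from 4 of 90.

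The library difference of Cxcl1 in macrophages was the largest of any member in the 5 myeloid gate classes, with a log2 ratio of -3.78 (interval -4.85 to -2.98) from 321 and 11 UMIs. Under the marker panels it was smaller, -1.85, at 396 and 109 CPM. The ratio was -1.49 in Ly6c2-positive macrophages, -1.34 in the Ly6c2 gate and -2.03 in the Flt3 gate, where Cxcl1 in the library labelled Runx3 was at background. In neutrophils it was -0.66 (interval -0.86 to -0.47) and did not reach 2-fold, but did under the marker panels with -1.77 (503 and 147 CPM).

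Cxcl3, the third Cxcr2 ligand, was scarce, with 750 and 554 UMIs in all kept cells. Its highest level was in neutrophils, 43.3 and 66.4 CPM, the latter not separated from macrophages, with a log2 ratio of 0.61. Under the marker panels the direction turned, with 62.1 and 43.4 CPM and a ratio of -0.51. In macrophages it had 16.1 and 35.0 CPM from 16 and 17 UMIs, a ratio of 1.07 (interval 0.04 to 2.20). That value rested on 1 cell with 11 of the 17 UMIs, and leaving out the cell with most UMIs in each library gave 0.03. Under the marker panels the macrophage ratio was 0.44. In Ly6c2-positive macrophages it had 10.5 and 8.26 CPM, within counting error, but under the marker panels 15.9 and 7.09 CPM, a ratio of -1.06 (interval -1.94 to -0.38) that passed 2-fold. No direction between the libraries is given for Cxcl3.

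Cxcl9 and Cxcl10 were spread more evenly over the myeloid classes than the neutrophil attractants. In the library labelled Runx3_fl Cxcl9 was at 1984 CPM in Ly6c2-positive macrophages, 1745 in macrophages, 1027 in the Flt3 gate, 864 in the Ly6c2 gate and 803 in neutrophils. In the library labelled Runx3 the order was macrophages at 623 CPM, the Flt3 gate at 422, Ly6c2-positive macrophages at 255, the Ly6c2 gate at 235 and neutrophils at 99.1, with the third and the fourth not separated. B-lineage, T and NK cells were at 139, 64.3 and 22.0 CPM in the first library and at 9.90, 4.57 and 0 CPM in the second, where 0 UMIs allow up to 6.76 CPM. In B-lineage cells of the library labelled Runx3_fl, 2 cells held 50% of the Cxcl9 UMIs.

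The level of Cxcl9 was lower in the library labelled Runx3 in all 5 myeloid classes. In neutrophils the log2 ratio was -3.01 (interval -3.30 to -2.75), an 8.10-fold lower level, and after thinning 23.3% and 6.70% of neutrophils had a Cxcl9 UMI. In Ly6c2-positive macrophages the level was 7.78-fold lower, with a UMI in 81.2% and 34.8% of cells, or 64.2% and 18.9% after thinning. Macrophages differed by -1.48 (interval -1.67 to -1.31), with 2 of the 66 cells of the library labelled Runx3 holding 50% of its UMIs there, and by -1.88 without the top cell of each library. The Cxcl9 ratio was -1.88 in the Ly6c2 gate and -1.28 in the Flt3 gate. The Flt3-gate value of the library labelled Runx3 rested on 2 cells, which held 50% of the UMIs. Macrophage markers in the neutrophil class were in at least 25% of cells for 1 and 2 of 8 genes. They summed to 502 and 1035 CPM, and B-lineage markers to 114 and 540 CPM, both higher in the library with less Cxcl9. Dendritic-cell markers summed to 2039 and 1830 CPM and NK markers to 445 and 53.4 CPM, both lower in that library. The part of such cells in the Cxcl9 level of the class was not tested.

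Cxcl10 showed a flatter profile than its neighbour. In the library labelled Runx3_fl it was at 1143 CPM in macrophages, 977 in Ly6c2-positive macrophages, 848 in neutrophils, 688 in the Ly6c2 gate and 590 in the Flt3 gate. In the library labelled Runx3 neutrophils led with 517 CPM, followed by Ly6c2-positive macrophages with 375 and the Ly6c2 gate with 365, which overlapped, and then by macrophages with 296 and the Flt3 gate with 218. The log2 ratio was -1.94 in macrophages (interval -2.21 to -1.70, 3.86-fold lower), -1.43 in the Flt3 gate and -1.38 in Ly6c2-positive macrophages. The Ly6c2 gate at -0.91 and neutrophils at -0.71 did not reach 2-fold, but did under the marker panels with -1.36 and -1.37. In NK cells Cxcl10 was higher in the library labelled Runx3, 142 against 53.1 CPM (log2 ratio 1.40, interval 1.02 to 1.80), and in B-lineage cells it was lower, 23.4 against 169 CPM (log2 ratio -2.81). The marker panels gave 1.26 in NK cells, and in B-lineage cells 162 against 311 CPM, a ratio of -0.94 that did not reach 2-fold.

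Cxcl16, the ligand of Cxcr6, differed by less than 2-fold between the libraries in all 5 myeloid classes. Macrophages held 545 CPM (interval 500.0 to 593) and 508 CPM (interval 447 to 576), a log2 ratio of -0.10 with an interval from -0.32 to 0.12. Ly6c2-positive macrophages had 407 and 331 CPM, the Flt3 gate 319 and 222, neutrophils 192 and 139 and the Ly6c2 gate 174 and 168 CPM, the last pair not separated in either library, while over all kept cells the ratio was 0.50. Within the classes the ratio ranged from -0.52 in the Flt3 gate to -0.05 in the Ly6c2 gate, and under the marker panels it was 0.10 in the Flt3 gate and 0.09 in neutrophils. NK, T and B-lineage cells had 10.3 to 30.2 CPM. After thinning 58.3% and 48.0% of macrophages had a Cxcl16 UMI, and unthinned 84.4% and 63.6%.

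**Figure D2:**
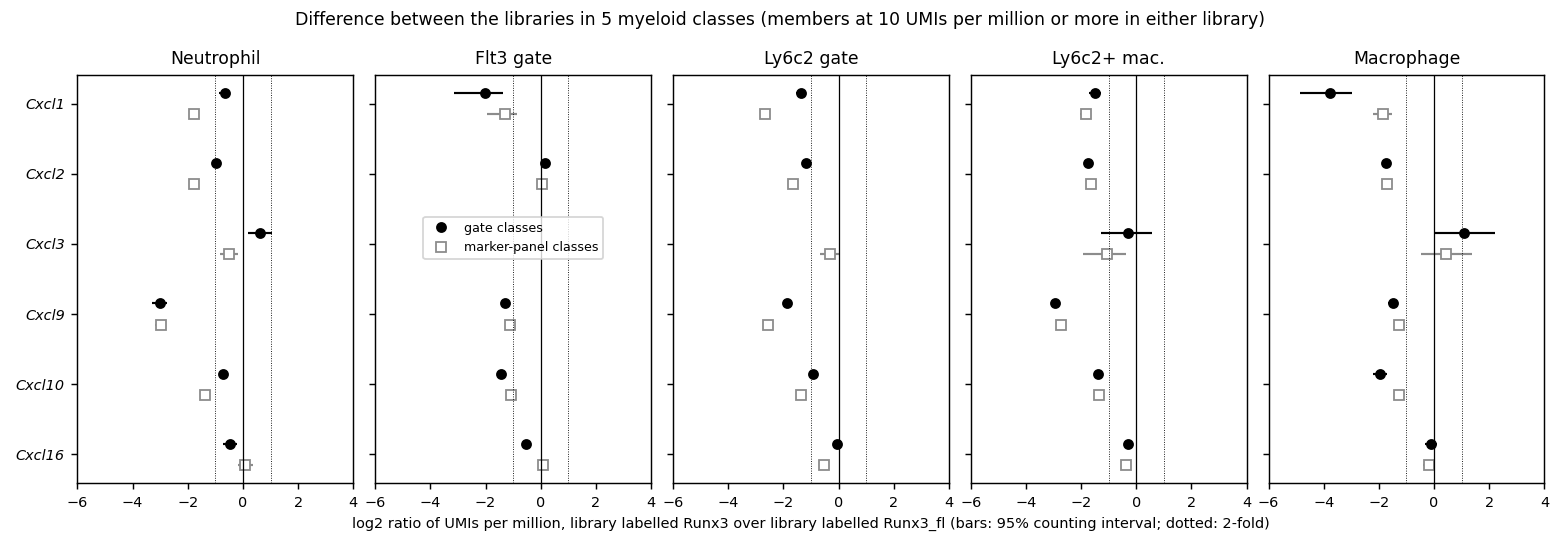
log2 ratio of CPM levels, library labelled Runx3 over library labelled Runx3_fl, for the members at 10 CPM or more in either library, in 5 myeloid classes; filled circles are gate classes, open squares marker-panel classes, bars 95% counting intervals and dotted lines 2-fold. Cxcl9 lies left of the 2-fold line in every panel, Cxcl16 lies within 2-fold in every panel, and Cxcl3 lies on both sides of 0.

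Counted together, 4 of 6 members passed 2-fold toward lower levels in macrophages (library labelled Runx3 against Runx3_fl) and 1, Cxcl3, was higher. Among the 8784 genes at 10 CPM or more there, 8.09% were lower and 19.1% higher by that rule. In Ly6c2-positive macrophages 4 of 6 were lower and 0 higher, against 3.65% lower and 15.5% higher of all genes. In the Ly6c2 gate 3 of 5 members that reached 10 CPM were lower and 0 higher, against 6.15% and 8.81%. In the Flt3 gate it was 3 of 5 and 0, against 4.65% and 10.7%. In neutrophils 1 of 6, Cxcl9, was lower and 0 higher, against 3.6% and 18.9%, and under the marker panels Cxcl1, Cxcl2 and Cxcl10 were lower too. The median log2 ratio of the members was -1.62, -1.44, -1.20, -1.28 and -0.69 in these classes in the order given, where that of all genes at 10 CPM or more was 0.22, 0.25, 0.10, 0.15 and 0.33. Measured against that median gene, 3 more members passed the 2-fold line downward, Cxcl2 (-1.30) and Cxcl10 (-1.05) in neutrophils and Cxcl10 in the Ly6c2 gate (-1.01), and Cxcl3 in macrophages (0.86) no longer passed it upward.

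The macrophage class itself was not alike in the libraries. Macrophage markers were in at least 25% of cells for 7 and 8 of 8 genes, and summed to 4896 and 10299.6 CPM. Neutrophil markers were found so for 1 and 2 of 8 genes, with sums of 378 and 356 CPM, and monocyte markers for 4 and 3 of 8, with 1435 and 1475 CPM. Median depth was 11278.5 and 4973 UMIs per cell. Fewer macrophages of an inflammatory kind and less chemokine RNA per cell cannot be told apart in sums over a class, and the part of depth was not tested. Split by Nos2, an enzyme of inflammatory macrophages, the 193 and 331 cells of both macrophage classes without a Nos2 UMI had 6478 and 2118 CPM of Cxcl2 and 1658 and 304 CPM of Cxcl9. The 62 and 11 cells with Nos2 had 7969 and 2531 CPM of Cxcl2 and 2571 and 499 CPM of Cxcl9. Both chemokines were lower in the library labelled Runx3 on either side of this split. A single UMI defined it at unequal depth, with medians of 12057 and 7246 UMIs in the cells without Nos2. Whether cells on 1 side were of the same kind in both libraries was not tested.

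Counted by UMIs, the attractants led in neutrophils and the Cxcr3 ligands in the Flt3 gate, in both libraries. Of the UMIs of the 5 soluble members, the neutrophil attractants Cxcl1, Cxcl2 and Cxcl3 made up 92.5% (interval 92.2 to 92.7) and 94.4% (94.03 to 94.83) in neutrophils. In macrophages they made up 67.9% (67.0 to 68.9) and 65.7% (63.1 to 68.3), intervals that overlapped. The marker panels gave 71.5% and 65.1%, and both macrophage classes pooled gave 71.0% and 76.8%, so the sign of the difference depended on how macrophages were defined. Ly6c2-positive macrophages had 72.2% and 78.7%, and the Ly6c2 gate 61.4% and 64.3%. The Flt3 gate was the one myeloid class in which Cxcl9 and Cxcl10 held most of the UMIs, with attractants at 15.4% and 31.9%. Cell by cell, 89.4% and 74.6% of neutrophils had more attractant than Cxcl9 and Cxcl10 UMIs. Of Flt3-gate cells 19.3% and 40.9% did, and 64.7% and 26.0% had the opposite. Counted by cells, the attractants therefore led in the Flt3 gate of the library labelled Runx3. They also led there in the background classes. These had more attractant UMIs in 44.7% of B-lineage, 46.2% of T and 53.2% of NK cells, and the opposite in 7.66%, 9.78% and 27.7%. This lead is therefore not read as a trait of the Flt3 gate. In the background classes the share differed widely between the libraries, at 18.1% and 80.5% in B-lineage cells and 46.0% and 63.9% in T cells.

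**Figure D3:**
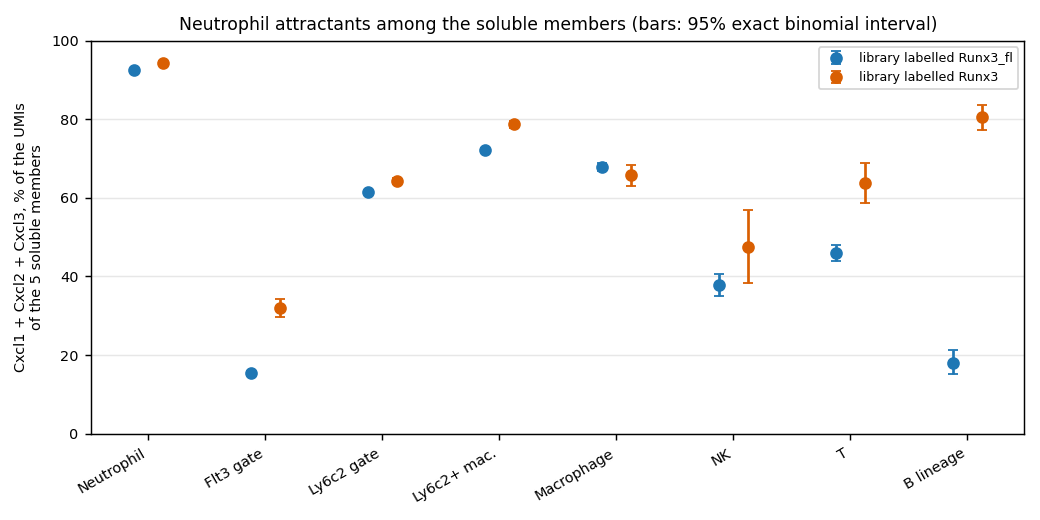
Share of Cxcl1, Cxcl2 and Cxcl3 among the UMIs of the 5 soluble members (percent) by cell class and library, with 95% exact binomial intervals. Neutrophils lie at 92.5% and 94.4%, macrophages at 67.9% and 65.7% and the Flt3 gate at 15.4% and 31.9%. The last 3 classes, NK, T and B lineage, serve as background.

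Summed, the attractants had a log2 ratio of -1.79 in macrophages (interval -1.90 to -1.69, 3.47-fold lower) and Cxcl9 with Cxcl10 one of -1.65 (interval -1.80 to -1.51, 3.14-fold lower). In neutrophils the attractants had -0.95, and -1.76 under the marker panels. Over all kept cells, where the makeup of the libraries enters, the ratio was only -0.22 for the attractants and -0.93 for Cxcl9 with Cxcl10.

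Most member UMIs came from cells that passed a myeloid gate, 59.4% and 77.5% of the cells. They held 93.7% and 96.8% of the Cxcl2 UMIs, 87.3% and 96.2% of Cxcl9 and 87.2% and 95.2% of Cxcl16. These cells were deeper, with medians of 12487 and 6794 UMIs against 9573 and 5731 in all kept cells. Per UMI the excess was smaller. Cxcl2 stood at 2808 and 2063 CPM in them and at 2145 and 1853 CPM over all kept cells. Cxcl9 stood at 734 and 243 CPM against 602 and 220 CPM. Cells positive for Ly6c2 and the T-cell gene Cd3e, 2075 and 257, were among them. Many of these cells passed more than 1 gate and are in no class. The 689 and 1306 cells positive for Csf3r and Ly6c2 held 23.8% and 35.9% of all Cxcl2 UMIs, at 9049.8 and 3514 CPM, and 1658 and 240 CPM of Cxcl9. Within neutrophils, the 57 and 141 cells with a granule gene of young neutrophils (Ngp, Camp or Ltf) had 31893 and 10771 CPM of Cxcl2, and the 650 and 210 without had 18761 and 9774 CPM.

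Within the Flt3 gate the members followed different subsets. Cells with Ccr7 and Fscn1, markers of migratory dendritic cells, had the most Cxcl16, 627 and 749 CPM in 125 and 18 cells. Cells with Xcr1, a marker of cross-presenting dendritic cells, had 1165 CPM of Cxcl9 in 102 cells of the library labelled Runx3_fl, and the other library had only 6 such cells, with 11 UMIs. Cells with Cd209a had 727 and 1055 CPM of Cxcl9 in 62 and 29 cells. In the library labelled Runx3, 1 of the 29 held 366 of the 413 UMIs, and without the top cell of each library the levels were 609 and 133 CPM.

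How evenly a member was shared by the cells of a class differed between members. In neutrophils of the library labelled Runx3_fl the top 10% of cells by Cxcl2 held 33.9% of its UMIs, whereas the top 10% by Cxcl9 held 89.1% and by Cxcl1 93.0%. In neutrophils of the library labelled Runx3 the figures were 51.5% for Cxcl2 and 98.3% for Cxcl9. Over both macrophage classes the top 10% held 36.3% and 60.0% of the Cxcl2 UMIs and 51.3% and 86.6% of the Cxcl9 UMIs. The library labelled Runx3 was the shallower, with a median of 3183 and 2761 UMIs per neutrophil. The parts of depth, of level and of the makeup of a class in these shares were not tested.

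**Figure D4:**
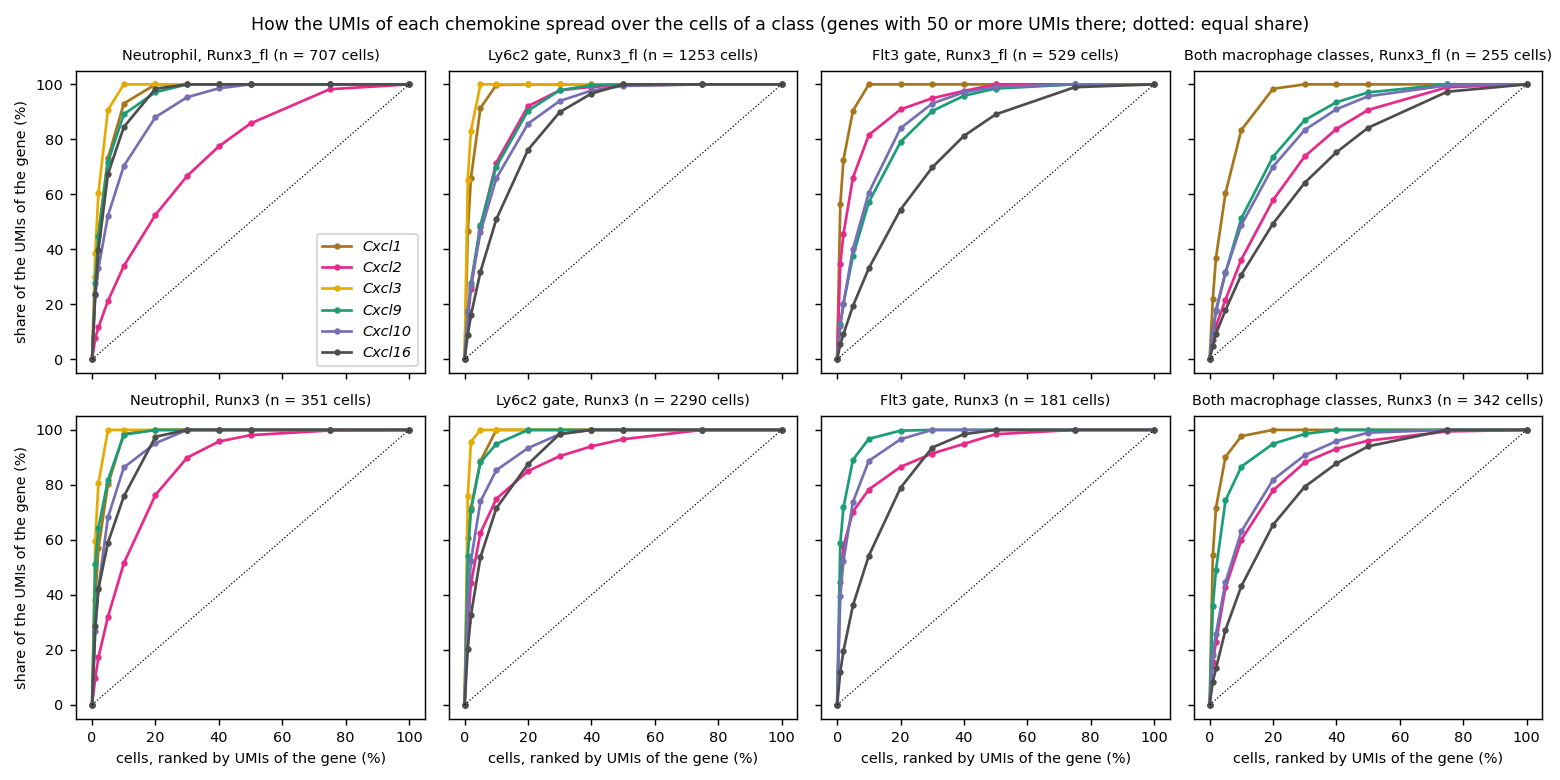
Cumulative share of a gene's UMIs (percent) against the share of cells ranked by that gene (percent), for members with 50 or more UMIs, in 4 cell groups of the 2 libraries; the dotted line is an equal share. Cxcl2 in neutrophils and Cxcl16 in the Flt3 gate and both macrophage classes lie nearest the line, and Cxcl1 and Cxcl3 are held by few cells.

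Cxcl9 and Cxcl10 tended to be found in the same cells at equal depth. In the thinned Flt3 gate, 55.6% of cells with Cxcl9 also had Cxcl10 in the library labelled Runx3_fl, compared with 16.4% of cells without it, and the values were 36.0% and 10.2% in the library labelled Runx3. The Ly6c2 gate gave 61.3% against 23.2% and 44.6% against 19.0%. Over both macrophage classes it was 62.9% against 39.8% and 49.1% against 31.2%. Cxcl2, present in most macrophages, did not follow Cxcl9 there, with 88.7% against 87.8% in the library labelled Runx3_fl. In the Ly6c2 gate Cxcl2 was in 63.8% of cells with Cxcl9 against 29.8% without it, and in 50.6% against 41.3% in the library labelled Runx3. Cxcl16 was in 48.2% against 13.4% and in 41.1% against 16.7% of these cells. Sharing cells with Cxcl9 was thus not particular to Cxcl10 in that gate. In neutrophils Cxcl2 was less frequent in cells with Cxcl9, with 88.8% against 92.8% in the library labelled Runx3_fl. Cxcl2 was found more often in cells with Cxcl1 than in cells without it: 97.7% against 90.9% of neutrophils and 95% against 37.3% of Ly6c2-gate cells in that library, and 96.0% against 73.9% and 86.4% against 41.0% in the other. In the Flt3 gate of the library labelled Runx3_fl it was 54.5% of 22 cells against 20.1%. The classes mix subtypes, and these shares are descriptions.

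Across the 14 pairs of 7 classes and 2 libraries, the genes most like each member in log2 CPM were listed by Pearson correlation, as a description of points that share libraries and classes. Cxcl2 lay closest to Tnf (0.99), Fth1 (0.99) and Clec4e (0.98), and Cxcl1 to Il1rn, Clec5a and Tnf (0.96 each). Cxcl9 lay closest to Tnip3 (0.97), Gm4951 (0.97) and St3gal1 (0.96), and Cxcl10 to Csf2rb2, Batf2 and Nampt (0.96 each). Cxcl16 lay closest to Sh3pxd2b, Slamf8 and Cd180 (0.99, 0.99 and 0.98), and Cxcl3 to Gm13986 (0.96), Gm5150 and C5ar1 (0.95 each). Between members the value was 0.96 for Cxcl1 with Cxcl2, 0.93 for Cxcl1 with Cxcl10, 0.91 for Cxcl2 with Cxcl3, 0.89 for Cxcl9 with Cxcl16, 0.87 for Cxcl2 with Cxcl10, 0.76 for Cxcl9 with Cxcl10 and 0.65 for Cxcl2 with Cxcl9. Cxcl10 was thus closer to Cxcl1 and Cxcl2 than to Cxcl9 on this measure.

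Receptors were read in the cells known to carry them. Cxcr2 was at 234 and 191 CPM in neutrophils, the class with the highest Cxcl2 level. Cxcr3 in T cells was at 52.6 and 24.3 CPM (log2 ratio -1.08), and Cxcr6 at 281 and 51.0 CPM (log2 ratio -2.44). Cxcr4, the receptor of Cxcl12, was at 239 and 305 CPM in neutrophils. Of 8 receptors, 3 reached 10 CPM in neutrophils and 0 of them differed 2-fold, while in T cells 2 of 4 were lower and 1, Cxcr5, was higher, where 12% of 8336 genes were lower and 12.6% higher. Of the 8 other CXC ligands, only Pf4 reached 10 CPM in macrophages, at 23.2 and 115 CPM, the opposite direction to Cxcl2.

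Genes of the interferon-gamma route, the main inducer of Cxcl9, were examined as a list of 12. In macrophages 4 of the 11 at 10 CPM or more were lower in the library labelled Runx3 (Ifng, Jak2, Irf8 and Cd274) and 0 higher, beside 8.09% and 19.1% of all genes, and 3 of 10 were lower in Ly6c2-positive macrophages (Jak2, Gbp2 and Cd274). In neutrophils 4 of 11 were lower (Ifng, Irf8, Gbp2 and Cd274), beside 3.6% of all genes, and in T cells 3 of 11 were lower and 3 higher. Cd274, which encodes PD-L1, had 915 and 405 CPM in macrophages and 2272 and 1100.0 CPM in neutrophils, and the guanylate-binding protein gene Gbp2 had 770 and 241 CPM in Ly6c2-positive macrophages. The transcription factor gene Irf1 was not called in macrophages, with 157 and 284 CPM. Ifng itself was at 452 and 47.9 CPM in T cells (log2 ratio -3.21), but at 518 and 559 CPM in NK cells. NK markers summed to 623 and 65.8 CPM in the macrophage class and to 445 and 53.4 CPM in the neutrophil class. T markers were higher in the library labelled Runx3 in these classes, with 28.2 and 39.1 CPM in macrophages. The part of lymphocytes or their free RNA in the Ifng calls of macrophages and neutrophils was not tested.

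Of 10 genes of NF-kB and its inducers, 6 of the 9 measured in macrophages were lower (Tnf, Il1a, Il1b, Il6, Nfkb1 and Tnfaip3) and 0 higher, beside the same 8.09% and 19.1%. The 4 cytokines were also the ones lower among 9 in neutrophils and among 9 in Ly6c2-positive macrophages. Il1b had 4242 and 1039 CPM in macrophages (log2 ratio -2.03) and 6670 and 3214 CPM in neutrophils. Tnf had 742 and 265 CPM in macrophages (log2 ratio -1.48) and 1695 and 822 CPM in neutrophils. Il1a had 314 and 30.9 CPM in macrophages, and Il6 226 and 35.0 CPM in Ly6c2-positive macrophages.

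Of the 5 regulators of mRNA decay and stability, 0 were called in macrophages and neutrophils. Zfp36, which binds AU-rich elements, had 548 and 1033 CPM in macrophages (log2 ratio 0.91). It had 661 and 1301 CPM in Ly6c2-positive macrophages and 1621 and 1880.1 CPM in neutrophils, higher in the library labelled Runx3 in each. The median gene was higher there as well, with log2 ratios of 0.22, 0.25 and 0.33 in these classes. A link to the Cxcl2 level was not tested. Zfp36l2 was the one called in Ly6c2-positive macrophages, and Zfp36 in the Ly6c2 gate, both higher. Of the 3 proteases acting on these chemokines, Adam10 had 66.4 and 94.6 CPM and Adam17 196 and 214 CPM in macrophages, and Dpp4, which trims Cxcl10, 36.2 and 12.3 CPM, the one that was called.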

How the data were processed

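Raw UMI counts per gene and barcode were deposited by the authors as 1 filtered matrix per library (10x 3′ v3 kit, Cell Ranger 7.1.0 per the file headers). The submitters' processing notes name mm10 and Seurat 4. Further counting settings are not given in the sources used here. Cells with 200 to 6000 genes and at most 15% mitochondrial UMIs were kept, as in the study's methods, and the upper gene limit was the only treatment of doublets. Counts were summed per class and library and divided by the class total (CPM). Log2 ratios were taken on the log2(CPM + 1) scale, which understates changes of low genes, and a gene at 10 CPM or more in either library was called at 2-fold. Intervals are exact Poisson (levels), Clopper-Pearson (shares) and conditional binomial (ratios), at 95%, and cover counting error only. With 1 library per group no p-value was computed. Shares of cells were compared after thinning to 2000 UMIs per cell, which left out 616 and 1868 cells. Total UMIs were 146204416 and 75478164. In marker panels a cell needed 3 of 8 markers and a lead of 2. The genes named were the 6 members, their lists and the 3 genes most like each among those reaching 50 CPM. The members and lists were chosen with earlier results of these data known. Of 32285 gene IDs 32158 were in GENCODE M21. The scripts (scipy 1.17.1 and pandas 2.3.3 under Python 3.11.15) were tested on simulated data. Cxcl11 was not analysed here.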

Additional observations from a re-analysis of the deposited data

Results flagged for a closer look

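Cxcl2 and Cxcl10 each had log2 ratios (Runx3 over Runx3_fl) of opposite sign in different classes, with intervals on either side of 0. Cxcl2 was 1.49 in NK cells, from 418 and 54 UMIs (0.26 under the marker panels), and -1.76 in macrophages. Cxcl10 was 1.40 in NK cells, from 521 and 63 UMIs, and -2.81 in B-lineage cells, from 269 and 85 UMIs (1.26 and -0.94 under the marker panels). With 1 library per group the difference between the classes was not tested. In NK cells of the library labelled Runx3, neutrophil markers summed to 248 CPM against 15.9 CPM in the other library, and macrophage markers to 63.1 against 20.3 CPM. Their part in these ratios was not tested.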

How the results depend on the processing

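Values are log2 ratios, Runx3 over Runx3_fl. Attractants in macrophages (-1.79) moved to -1.35 without exclusive gates, -2.27 with at most 4000 genes, -2.01 centred on the median gene, -1.53 as a mean over cells and -1.68 with Ly6c2-positive macrophages pooled in. Cxcl9 with Cxcl10 in macrophages (-1.65) moved to -1.92 without exclusive gates, -1.87 centred on the median gene, -1.38 as a mean over cells, -2.12 pooled, -1.28 with marker panels and -2.06 when thinned. Attractants in neutrophils (-0.95) moved to -0.82 with gates of 2 UMIs, -1.42 without exclusive gates, -1.76 with panels, -1.13 when thinned, -1.12 without the cell filter, -1.28 centred on the median gene and -1.21 as a mean over cells. Cxcl16 in macrophages stayed within its interval, from -0.02 to -0.32. The attractant share of macrophages, Runx3 minus Runx3_fl, was -2.21 percentage points, and 7.21 without exclusive gates, -6.42 with panels, 3.56 when thinned, -10.2 with at most 4000 genes, -5.40 with B-lineage levels subtracted and 5.80 pooled, so it has no fixed sign. Without the low-value filter the share of genes lower was 3.42% in the Ly6c2 gate and 17.9% in macrophages. Of 407 single-member values, 27 had the other sign than the main value. Of these 22 belonged to members within 2-fold, among them Cxcl3 (-0.51) and Cxcl16 (0.09) in neutrophils, Cxcl16 in the Flt3 gate (0.10) and Cxcl2 in T cells (-0.29), all with panels. The other 5 belonged to members past 2-fold: Cxcl3 in macrophages with 2 UMIs (-0.74) and without exclusive gates (-0.15), Cxcl2 in NK cells without exclusive gates (-0.34), Cxcl9 in NK cells thinned (0.71) and in B-lineage cells with panels (0.71). Of 226 alternatives for called members, 201 stayed past 2-fold in the same direction. The cause of these moves was not tested. Pooling Ly6c2-positive macrophages and leaving out the cell with most UMIs were chosen after seeing the data. No paired analysis was possible because each group has 1 library.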
